A study of Mus musculus with 9 samples.

Results

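Transcripts of granulocyte granules and alarmins were followed through the RNA libraries of mouse macrophages with and without a Tet2 knockout. They were chosen by symbol, as 10 of the 47731 genes in the count tables: Mpo, Elane and Prtn3 of the primary granule, Ngp, Camp, Ltf and Lcn2 of the secondary granule, and S100a8, S100a9 and Saa3 as alarmin and acute-phase genes. All 10 passed the filter on low counts and were among the 14851 genes tested. The groups were 2 libraries labelled Tet2 Knockout and 3 labelled Wild-Type, each of macrophages at passage 0 treated with M-CSF, the cytokine on which macrophages depend for growth. Ribosomal-RNA-depleted total RNA was sequenced, and the tables give reads per gene. The sources used here do not give the tissue of origin, the design of the Tet2 allele, the strain, age and number of mice, or whether libraries came from separate animals or cultures. The p-values set the difference between genotypes only against the scatter of these libraries, and that scatter may therefore be technical.

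Granulocytes build their granules in a set order. Myeloperoxidase and the serine proteases of the primary granule are transcribed in promyelocytes, and the proteins of the secondary granule are made later, in myelocytes. Mature neutrophils keep the proteins and shut most of these genes off, so the transcripts mark granulocyte precursors more than they mark finished neutrophils. S100A8 and S100A9 form calprotectin, an abundant calcium-binding protein of neutrophils and monocytes that is released as an alarmin. Lcn2 and Saa3 are also induced in macrophages by inflammatory signals.

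The libraries held 16053426 to 56394358 counts in genes. Levels are given as CPM, counts scaled to a total of 1000000 counts in genes, and are not divided by transcript length, so levels of different genes are not compared. Counts over the whole Tet2 gene overlapped between genotypes (232 and 126 CPM in knockout, 86.2, 144 and 41.6 CPM in wild type) and cannot show which part of it was disrupted, so they do not check the labels. A knock-in sequence feature was at 90.4 and 88.1 CPM there and at 0 counts in all 3 wild-type libraries. Macrophage markers were summed to describe the label, with no criterion set for a match. All 11 listed were tested, and they summed to 18190 and 21415 CPM in knockout and 20201, 16188 and 17012 CPM in wild type. Lyz2, at 8014 to 13082 CPM, was the largest part in each library. It was highest in wild-type replicate 1 (13082 CPM) and knockout replicate 2 (11916.5 CPM), the highest pair for 8 of the 10 genes followed here. Of the 11 markers, 1 had this highest pair, against 1.69% of all tested genes. Single markers shifted both ways, with 3 fitted higher and 8 lower in knockout. In the tests given below edgeR called 0. DESeq2 called Adgre1 and Fcgr1 higher and Cd68, Mertk and Mrc1 lower, against 3.18% and 4.53% of its tested genes. Wild-type replicate 3 stood apart through stromal transcripts, with 14 listed markers summing to 6077 CPM there and to 7.68 to 26.2 CPM in the other libraries. Fits of the 10 genes without it are given below, while values of the other lists are from fits of all libraries.

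The genes lie in few places of the genome (GRCm38). Prtn3 (ENSMUSG00000057729, chr10:79879667-79883174) and Elane (ENSMUSG00000020125, chr10:79886312-79888216) are neighbours with 3137 bases between them. S100a8 (ENSMUSG00000056054, chr3:90669071-90670034) and S100a9 (ENSMUSG00000056071, chr3:90692630-90695721) are 22595 bases apart. Camp (ENSMUSG00000038357, chr9:109847377-109849456), Ngp (ENSMUSG00000032484, chr9:110419808-110423012) and Ltf (ENSMUSG00000032496, chr9:111019292-111042766) lie along the same stretch of chromosome 9, with gaps of 570351 and 596279 bases. Mpo (ENSMUSG00000009350, chr11:87793784-87804412), Lcn2 (ENSMUSG00000026822, chr2:32384637-32387739) and Saa3 (ENSMUSG00000040026, chr7:46711998-46719615) each stand on a chromosome of their own among the 10.

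The 250 bases before the transcript start were read for all 10 genes from RefSeq (GRCm38.p6), because most of the granule genes varied together across libraries. The 3 primary granule genes are shown first. Capitals mark GAGGAAGT, a motif with the GGAA core bound by ETS factors such as PU.1, which regulates myeloid genes.
Mpo (chr11:87793534-87793783, plus strand): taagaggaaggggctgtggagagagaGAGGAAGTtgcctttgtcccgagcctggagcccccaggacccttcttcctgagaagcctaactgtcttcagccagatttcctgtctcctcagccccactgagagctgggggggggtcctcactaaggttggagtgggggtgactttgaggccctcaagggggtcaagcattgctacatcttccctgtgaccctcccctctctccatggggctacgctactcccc
Elane (chr10:79886062-79886311, plus strand): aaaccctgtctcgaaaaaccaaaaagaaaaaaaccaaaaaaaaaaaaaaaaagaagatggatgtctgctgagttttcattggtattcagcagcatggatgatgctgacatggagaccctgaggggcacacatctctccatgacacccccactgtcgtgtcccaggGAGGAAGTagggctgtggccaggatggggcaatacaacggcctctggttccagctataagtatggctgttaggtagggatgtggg
Prtn3 (chr10:79879417-79879666, plus strand): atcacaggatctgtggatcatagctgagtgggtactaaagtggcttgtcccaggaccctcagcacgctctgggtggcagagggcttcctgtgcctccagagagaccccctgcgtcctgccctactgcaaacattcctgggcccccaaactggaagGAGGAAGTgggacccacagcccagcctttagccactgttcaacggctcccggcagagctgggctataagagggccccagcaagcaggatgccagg
The motif began 224 bases before the start in Mpo, 85 in Elane and 95 in Prtn3, in the same orientation. S100a8 held it on the other strand, 172 bases before the start, and none of the other 6 genes did. Of 32851 promoters of the same length, 2.44% held it on either strand.

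The next set shows a pair of secondary granule genes and the 2 genes that followed another pattern across libraries. Capitals mark TTGCNNAA on either strand, a loose form of the site bound by C/EBP factors, which direct granulocyte differentiation.
Ngp (chr9:110419558-110419807, plus strand): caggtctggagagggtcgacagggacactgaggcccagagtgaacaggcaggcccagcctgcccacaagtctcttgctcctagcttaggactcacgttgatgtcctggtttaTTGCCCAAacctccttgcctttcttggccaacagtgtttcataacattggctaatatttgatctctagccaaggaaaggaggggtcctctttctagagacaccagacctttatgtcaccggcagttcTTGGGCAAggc
Ltf (chr9:111019042-111019291, plus strand): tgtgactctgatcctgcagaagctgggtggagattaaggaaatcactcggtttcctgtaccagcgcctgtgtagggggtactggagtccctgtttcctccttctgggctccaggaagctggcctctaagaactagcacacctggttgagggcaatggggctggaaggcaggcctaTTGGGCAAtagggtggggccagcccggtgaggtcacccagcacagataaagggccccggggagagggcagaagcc
Lcn2 (chr2:32387740-32387989, minus strand): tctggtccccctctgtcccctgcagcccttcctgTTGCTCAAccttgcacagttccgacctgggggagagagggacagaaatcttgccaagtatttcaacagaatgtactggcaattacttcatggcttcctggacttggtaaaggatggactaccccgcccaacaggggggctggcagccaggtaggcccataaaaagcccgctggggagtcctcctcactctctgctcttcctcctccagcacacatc
Saa3 (chr7:46715677-46715926, minus strand): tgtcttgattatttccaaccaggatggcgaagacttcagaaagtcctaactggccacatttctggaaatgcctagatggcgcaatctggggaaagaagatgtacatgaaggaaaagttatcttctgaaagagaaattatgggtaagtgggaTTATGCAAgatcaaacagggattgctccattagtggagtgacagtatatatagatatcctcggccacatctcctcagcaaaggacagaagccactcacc
Ngp held it at 138 and 11 bases before the start, Ltf at 75, Lcn2 at 216 and Saa3 at 99. The Saa3 window lies inside the RefSeq span of the gene. S100a9 held the motif at 236 bases, and 9.56% of all promoters did. Camp held neither motif. The 2 motifs did not overlap each other in any of the 10 windows, and neither separates Lcn2 and Saa3 from the rest. They were picked, after the windows had been read, from 9 spellings searched on both strands. The others were GAGGAA (23.3% of promoters, 6 of the 10 genes), AGGAAGT (7.69%, 4 genes), TTNNGNAAT (10.2%, 3 genes), an NF-kB-type motif in a loose (45.8%, 4 genes) and a strict spelling (1.41%, 0 genes), TATAAA (12.4%, 1 gene) and TATAA (22.8%, 3 genes). GAGGAA and AGGAAGT lie within GAGGAAGT, TATAA within TATAAA and the strict NF-kB-type spelling within the loose one, so their matches overlap. A match describes the letters and is not evidence of a bound site.

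**Figure D1:**
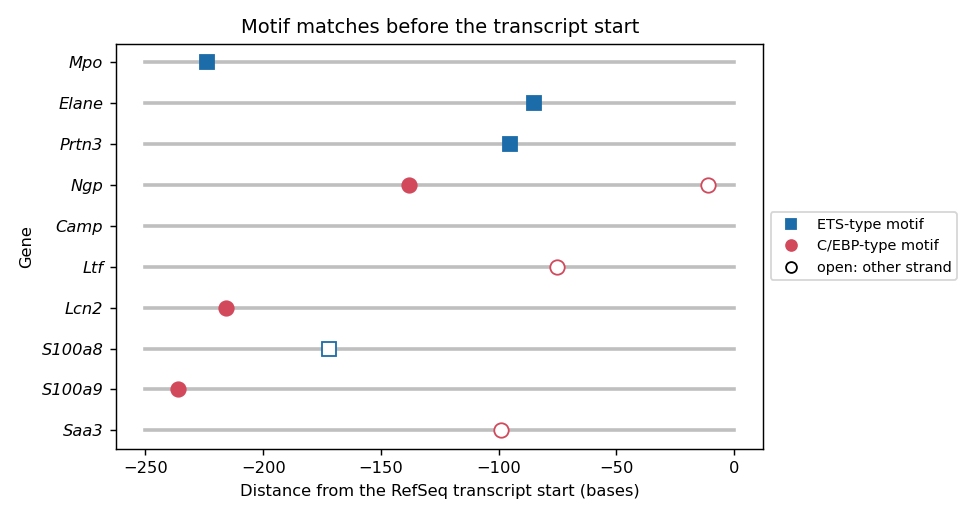
Positions of the ETS-type motif (blue squares) and the C/EBP-type motif (red circles) in the 250 bases before the RefSeq transcript start (x axis, bases) of each gene (y axis). Filled symbols are matches on the gene's strand and open ones on the other strand, and the 3 primary granule genes carry the ETS-type motif at 224, 85 and 95 bases.

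The primary granule genes differed far more between libraries of the same genotype than between genotypes. Mpo, which makes hypochlorous acid from peroxide in the phagosome, was at 0 CPM (0 counts) and 5.57 CPM in knockout replicates 1 and 2 and at 6.55, 0.876 and 0.0532 CPM in wild-type replicates 1, 2 and 3. Elane, which encodes neutrophil elastase, was at 0 and 1.69 CPM in knockout and at 2.22, 0.273 and 0 CPM in wild type. Prtn3, which encodes the related protease proteinase 3, was at 0 and 3.38 CPM in knockout and at 1.54, 0.175 and 0.0709 CPM in wild type. In each gene knockout replicate 2 and wild-type replicate 1 were the highest pair, wild-type replicate 2 was intermediate, and the genotypes overlapped. The 0 counts in knockout replicate 1 allow up to 0.187 CPM, a floor of 3 counts that covers counting error only. Against that floor, knockout replicate 2 was at least 29.8-fold higher in Mpo, at least 9.03-fold in Elane and at least 18.1-fold in Prtn3. Between wild-type replicates 1 and 3 the ratio of Mpo was 123 (exact 95% counting interval 41.1 to 605, from 115 and 3 counts).

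Of the 4 secondary granule genes, 3 had the same highest pair of libraries. Ngp, neutrophilic granule protein, was at 0 and 18.9 CPM in knockout and at 25.2, 1.30 and 0.0709 CPM in wild type. Ltf, the iron-binding lactoferrin, was at 0 and 36.1 CPM in knockout and at 15.5, 1.19 and 0.0532 CPM in wild type. Camp, the cathelicidin precursor of an antimicrobial peptide, was at 0.0623 and 4.51 CPM in knockout and at 2.50, 0.136 and 0.426 CPM in wild type. Here too the genotypes overlapped, and knockout replicate 1 was the lowest library. Its 0 counts put knockout replicate 2 at least 101-fold higher in Ngp and at least 193-fold higher in Ltf, while for Camp the ratio was 72.5 (counting interval 12.7 to 2886) with 115 and 1 counts. Camp departed in wild-type replicate 3, with 24 counts against 4 of Ngp and 3 of Ltf, so that this library ranked above wild-type replicate 2 for Camp and below it for the other 2 genes.

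Lcn2, the siderophore-binding lipocalin of the secondary granule, did not follow the other secondary granule genes. It was at 24.4 and 21.7 CPM in knockout and at 6.26, 1.83 and 0.248 CPM in wild type. Both knockout libraries were above all 3 wild-type libraries, and the knockout libraries were close to each other (ratio of replicate 2 to replicate 1 0.889, counting interval 0.780 to 1.02). In wild type the order of the libraries was that of Ngp and Ltf. Lcn2 made up 99.7% of the 392 counts of the 4 secondary granule genes in knockout replicate 1 (Clopper-Pearson 95% interval from 98.6%) and 26.7% of 2069 in replicate 2. In wild type the share was 12.7% of 869, 41.0% of 229 and 31.1% of 45 counts.

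The alarmin genes S100a8 and S100a9 went with the granule genes. S100a8 was at 1.18 and 38.8 CPM in knockout and at 25.4, 3.02 and 1.10 CPM in wild type. S100a9 was at 0.311 and 67.9 CPM in knockout and at 49.1, 3.49 and 0.195 CPM in wild type. Knockout replicate 2 and wild-type replicate 1 were again the highest, and the genotypes overlapped. For S100a9 the ratio was 218 between the knockout libraries (counting interval 93.3 to 673) and 252 between wild-type replicates 1 and 3 (interval 139.9 to 506). For S100a8 these ratios were 32.8 (20.9 to 54.7) and 23.1 (17.7 to 30.7), below the intervals of S100a9 in both pairs.

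Saa3, an inducible serum amyloid A protein of macrophages and other cells, had a pattern of its own. It was at 592 and 230 CPM in knockout and at 0.171, 63.2 and 4.73 CPM in wild type. Both knockout libraries were above all wild-type libraries. The order within each genotype was not that of the granule genes: knockout replicate 1 was the highest library and wild-type replicate 1, with 3 counts, the lowest. Saa1, Saa2 and Saa4, its relatives, had 0 counts in all 5 libraries, which allows up to 0.0532 CPM in the deepest and 0.187 CPM in the shallowest.

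**Figure D2:**
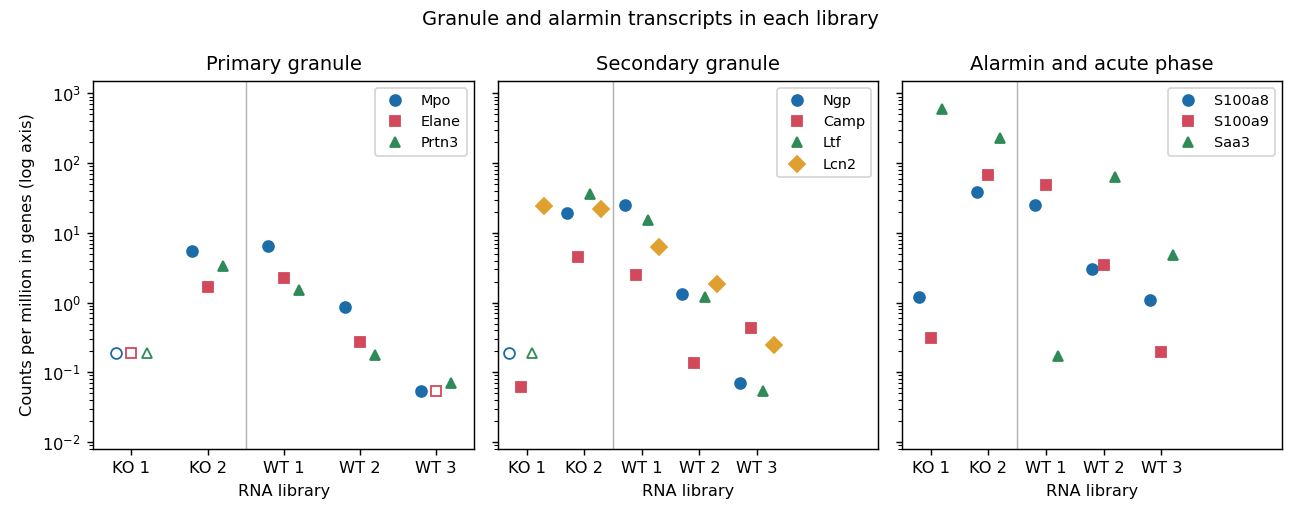
CPM in genes (y axis, log scale) of each gene in the 2 knockout (KO) and 3 wild-type (WT) RNA libraries (x axis), 1 point per gene and library. Open symbols are libraries with 0 counts, drawn at the 3-count floor of 0.187 CPM (KO 1) or 0.0532 CPM (WT 3), and the granule genes apart from Lcn2 peak in KO 2 and WT 1 while Lcn2 and Saa3 lie higher in both KO libraries.

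Knockout replicate 2 and wild-type replicate 1 were the highest pair of libraries for 8 of the 10 genes, a pattern seen in 1.69% of all tested genes. Knockout replicate 1 and wild-type replicate 3 were the lowest pair for 7 of the 10, against 5.04% of all tested genes. The summed level of the 6 granule genes without Lcn2 was 0.0623 and 70.2 CPM in knockout and 53.5, 3.95 and 0.674 CPM in wild type. A gap of at least 8-fold (on CPM plus 0.1) from knockout replicate 1 to replicate 2 was found in 31 genes, 0.209% of those tested, and 8 of these were the granule genes apart from Lcn2 with S100a8 and S100a9. The same gap from wild-type replicate 3 to replicate 1 was found in 104 genes, 0.7% of those tested, with 8 of the 10 among them, Lcn2 included and Camp not. Both gaps held for 14 genes (0.0943% of those tested), which is 45.2% of the first list and 13.5% of the second, and 7 of these are members. These library pairs and gaps were chosen after the values were seen and describe single libraries, with no test. In bulk RNA, fewer cells of a type and less RNA per cell cannot be told apart.

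The libraries with high granule transcripts were not alike in their mixture. In knockout replicate 2, 65.6% of the counts of Ltf and Ngp were Ltf (interval 63.1% to 68.1%, n = 1402), and in wild-type replicate 1 38.0% (34.5% to 41.7%, n = 715). The genes of the primary granule held 15.2% of the counts of the 6 granule genes in knockout replicate 2 (13.5% to 16.9%, n = 1788) and 19.3% in wild-type replicate 1 (16.8% to 21.9%, n = 940), intervals that just overlap. In wild-type replicate 2 their share was 33.5% (27.0% to 40.4%, n = 203), above both. S100a9 made up 63.7% and 65.9% of the counts of the calprotectin pair in the high libraries, 53.6% in wild-type replicate 2, and 20.8% and 15.1% in knockout replicate 1 and wild-type replicate 3, the latter from 24 and 73 counts (intervals 7.13% to 42.2% and 7.77% to 25.4%). Of the counts of the pair, the low libraries thus held mostly S100a8 and the high ones mostly S100a9. Counts are not divided by transcript length, so only the shift of the share between libraries is read. All intervals are Clopper-Pearson and cover counting error only, so they compare libraries and not genotypes.

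**Figure D3:**
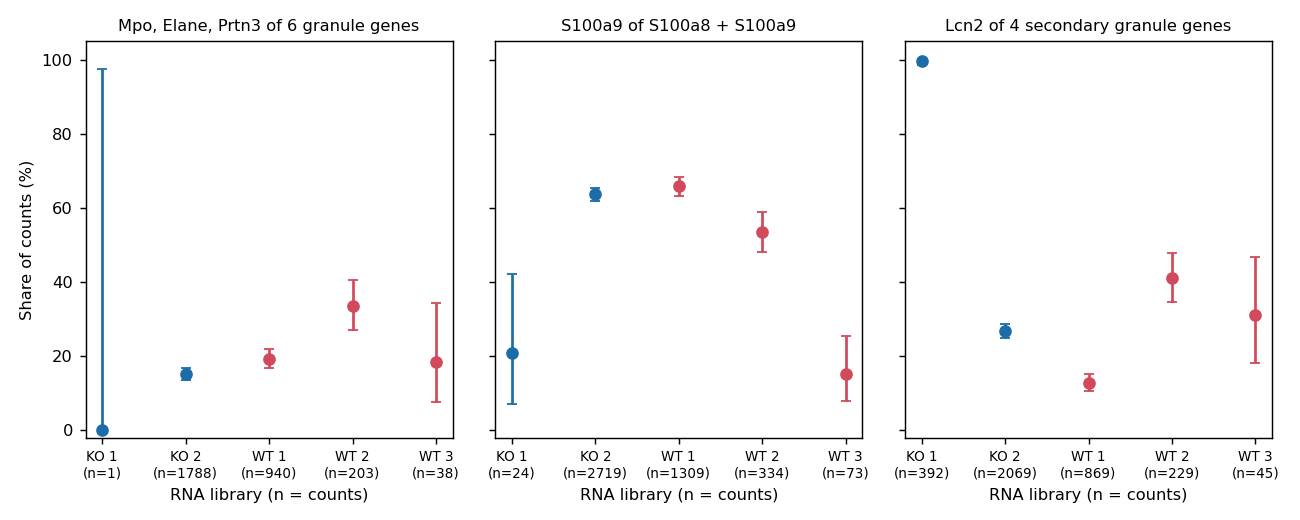
Share of counts (y axis, %) in each RNA library (x axis, with the number of counts n) taken by the 3 primary granule genes among 6 granule genes, by S100a9 within S100a8 and S100a9, and by Lcn2 among the 4 secondary granule genes. Points are single libraries (blue knockout, red wild type), bars are 95% Clopper-Pearson intervals, and Lcn2 takes 99.7% in KO 1 while S100a9 takes 20.8% there and 15.1% in WT 3.

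No gene of the 10 passed the comparison of knockout with wild type. The edgeR quasi-likelihood test over all genes called 0 of 10 at an adjusted p of 0.05, against 0.0135% of all tested genes (2 genes). An unadjusted p under 0.05 in edgeR was found for 0 of 10, against 13.8% of all tested genes. DESeq2 and limma-voom also called 0, each with 2 of 10 at an unadjusted p under 0.05. Over all genes fitted, 3042 of 25961 had such a p in DESeq2 and 1878 of 14851 in limma-voom. DESeq2 called 7.71% of the genes it tested. Of the 10, 2 had both knockout libraries above all wild-type libraries, a share near the 17.8% of all tested genes with this order, and 0 had both below, against 17.4%. The fitted level was higher in knockout for 7 of the 10, against 48.4% of all tested genes.

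The fitted changes of the granule genes were small beside their errors. Mpo had a log2 change (knockout over wild type) of -0.06 ± 2.22 (SE; edgeR adjusted p = 0.992), Elane of -0.11 ± 2.23 and Ngp of -0.18 ± 2.54. Prtn3, Camp and Ltf had 1.38 ± 1.94, 0.99 ± 1.75 and 1.44 ± 2.49. S100a8 had 0.77 ± 1.75 and S100a9 0.68 ± 2.36. Among these 8 the lowest edgeR adjusted p was 0.781, that of Prtn3. Without wild-type replicate 3, the library with stromal transcripts, their log2 changes kept their signs, from -0.76 (Ngp) to 0.85 (Ltf). Errors of about 2 log2 units mean that a difference of several fold was not detectable in these genes.

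Which libraries were present decided the sign of these values. Without knockout replicate 2 all 8 had a lower fitted level in knockout, with log2 values from -11.58 to -3.32. These rest on the counts near 0 in knockout replicate 1 and are not bounds. Without wild-type replicate 1 the 7 that were tested had a higher fitted level, from 2.64 to 4.91, and Prtn3 was not tested. Neither fit called any of the 10, and with 1 knockout library left that library is assumed to vary like the wild type.

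Lcn2 and Saa3 had larger fitted changes and did not pass either. Lcn2 was at 23.0 ± 1.90 CPM in knockout (SD, n = 2) and 2.78 ± 3.12 CPM in wild type (SD, n = 3). Its log2 change was 2.86 ± 1.23 (SE; edgeR adjusted p = 0.388). Saa3 was at 411 ± 256 CPM in knockout (SD, n = 2) and 22.7 ± 35.1 CPM in wild type (SD, n = 3). Its log2 change was 4.22 ± 1.83 (SE; edgeR adjusted p = 0.390). Their direction was the same with each library left out, from 2.31 to 4.51 for Lcn2 and from 3.39 to 7.34 for Saa3. Without wild-type replicate 3, the library with stromal transcripts, they were 2.31 and 3.74. The highest Saa3 value was without wild-type replicate 2 and the highest Lcn2 value without wild-type replicate 1. With DESeq2 the adjusted p was 0.136 for Lcn2 and 0.224 for Saa3.

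**Figure D4:**
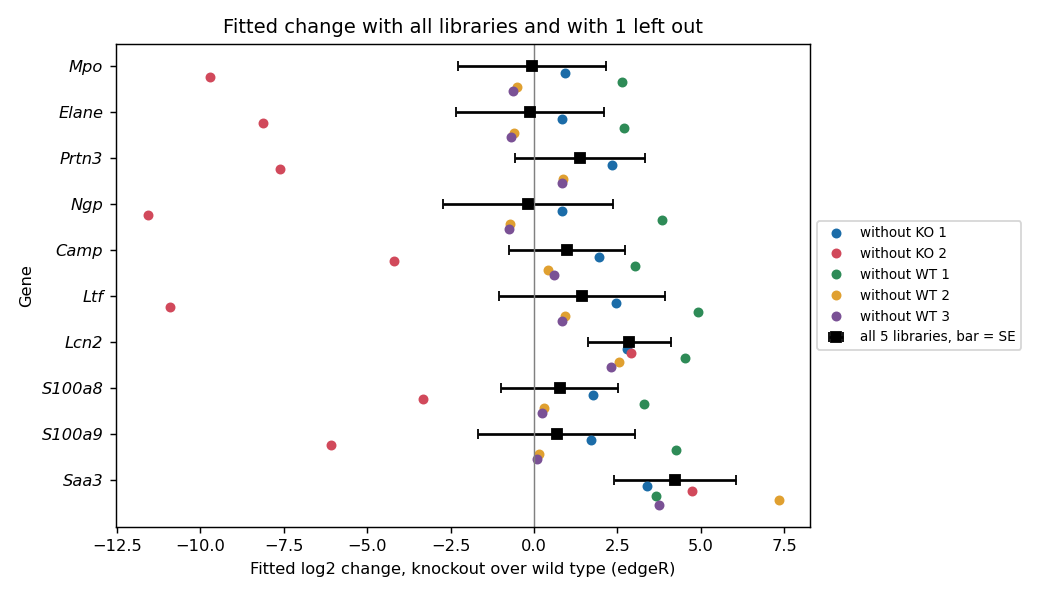
Fitted log2 change of knockout over wild type (x axis, edgeR) of each gene (y axis) with all 5 RNA libraries (black squares, bars are SE) and with 1 library left out (coloured points; Prtn3 was not tested without WT 1). The granule genes apart from Lcn2 and the S100 pair cross 0 depending on the library left out, while Lcn2 stays between 2.31 and 4.51 and Saa3 between 3.39 and 7.34.

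Likeness of profiles was measured as the root mean square difference of centred log2 normalised CPM over the 5 RNA libraries. The 28 pairs within the granule genes apart from Lcn2 and the S100 pair differed by 0.43 to 2.14, the closest being Prtn3 and S100a8. Lcn2 differed from each of these 8 by 2.33 to 3.65, and Saa3 from the other 9 by 3.68 to 6.44. Of 11947 other named genes, those nearest to the mean profile of the primary class were Itgb2l (0.45), Chil3 (0.48) and Ms4a3 (0.63), and the same 3 were nearest to the secondary class. Itgb2l, an integrin beta chain, was at 0 and 1.92 CPM in knockout and at 1.54, 0.0974 and 0 CPM in wild type. Chil3, the chitinase-like protein Ym1 of myeloid cells, was at 0.311 and 40.7 CPM in knockout and at 36.8, 3.68 and 0.514 CPM in wild type. Ms4a3, a membrane protein of granulocyte-monocyte progenitors, was at 0 and 1.65 CPM against 0.797, 0.117 and 0.0177 CPM. Nearest to the mean of the alarmin class were H2-M2 (0.58), Nptx1 (0.88) and Tmem163 (0.93). H2-M2 was at 2.43 and 18.0 CPM in knockout and at 1.59, 4.69 and 0.603 CPM in wild type, an order that is neither that of the S100 pair nor that of Saa3.

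Lcn2 and Saa3 were also compared with all named genes on their own, a step added after their values were seen. Ms4a4a was nearest to Lcn2 (0.60), at 67.0 and 55.9 CPM in knockout and 5.58, 4.36 and 0.443 CPM in wild type. Saa3 was nearest to Raver2 (0.90) and to the formyl peptide receptor gene Fpr1 (0.90), which was at 213 and 149 CPM against 0.114, 30.8 and 0.550 CPM. Profiles over 5 libraries are short, and likeness here says nothing on shared control.

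**Figure D5:**
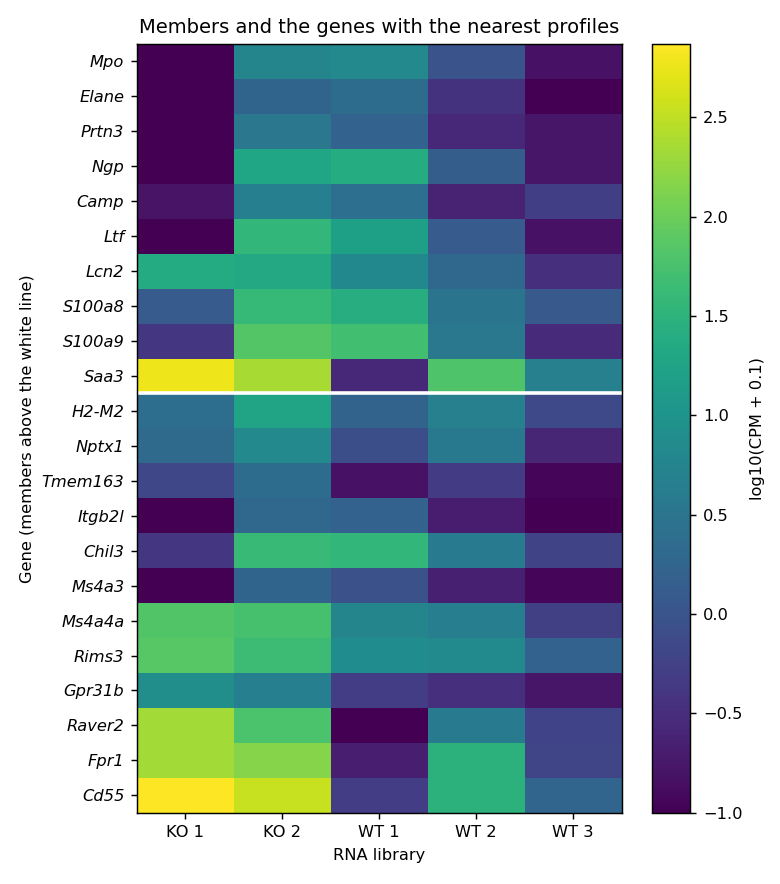
Level of the 10 genes and, below the white line, of the genes nearest to each class mean, to Lcn2 and to Saa3 (y axis) in the 5 RNA libraries (x axis), as log10(CPM + 0.1) by colour. Itgb2l, Chil3 and Ms4a3 are brightest in KO 2 and WT 1 as the granule genes are, and Fpr1 shares with Saa3 the lowest value in WT 1.

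Other granule genes were listed to set the 10 beside the rest of the granule. By edgeR none passed in either direction: 0 of 4 tested among 6 further primary granule genes (median log2 0.28) and 0 of 9 tested among 11 of the specific and tertiary granules (median log2 0.52), where the median of all tested genes was -0.03. DESeq2 called Srgn lower (adjusted p = 0.0258) and Mmp9 higher (adjusted p = 0.0118). Over all its tested genes it called 3.18% higher and 4.53% lower. Of the 6 and 11 genes, 3 and 6 had their highest levels in knockout replicate 2 and wild-type replicate 1, against 1.69% of all tested genes. Prss57 and Olfm4 are among those 3 and 6 though they were not tested. Ctsg, cathepsin G of the primary granule, was at 0 and 1.26 CPM in knockout and at 1.02, 0.195 and 0.160 CPM in wild type. The abundant genes of these lists other than Chil3 were not at their highest there. Ctsc, the protease that activates granule serine proteases, was at 459 and 310 CPM against 99.8, 281 and 671 CPM, and Srgn, the proteoglycan that packs them, at 30.9 and 28.1 against 61.0, 50.9 and 101 CPM. Mmp8, a collagenase of the specific granule, was at 8.85 and 17.6 against 5.98, 14.0 and 28.1 CPM. Mmp9, the gelatinase of the tertiary granule and of macrophages, was at 770 and 653 against 1.31, 72.5 and 3.60 CPM, with both knockout libraries above all wild type.

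Markers of finished neutrophils were low. Of 15 listed, 4 were tested and 0 passed in edgeR or DESeq2. The list summed to 72.5 and 31.5 CPM in knockout and 131, 40.2 and 30.3 CPM in wild type, most of it from the G-CSF receptor Csf3r (70.4 and 22.8 against 129, 39.6 and 8.49 CPM), except in wild-type replicate 3, where Trem1 was at 20.7 CPM. Ly6g, the defining surface marker of mouse neutrophils, and Mrgpra2a had 0 counts in all 5 libraries. Retnlg had at most 4 counts, and Cxcr2 was at 0.187 and 1.18 CPM in knockout and 0.569, 0.136 and 0.0887 CPM in wild type. Cxcr2, Cxcr1 and Hdc, 3 of the 15, were highest in knockout replicate 2 and wild-type replicate 1 as the granule genes were, Cxcr1 with only 2 and 5 counts. Of all tested genes 1.69% had this pair highest, and Cxcr1 was not tested. The stefin genes Stfa1, Stfa2, Stfa3, Stfa2l1 and BC100530, also of the 15, had counts in knockout replicate 2 alone (1, 13, 17, 50 and 53). Eosinophil markers (9 listed, 0 of 2 tested passed in edgeR, Siglecf called lower by DESeq2) summed to 18.0 to 25.0 CPM in 4 libraries and to 5.43 CPM in wild-type replicate 3, mostly Ccr3 and Siglecf, with Ear6 at 0 counts throughout. Mast cell and basophil markers summed to at most 0.398 CPM except in wild-type replicate 3 (5.05 CPM, with Mcpt8 at 4.98), and Mcpt4 and Tpsb2 had 0 counts. Progenitor markers (7 listed, 0 of 5 tested passed in edgeR, Sox4 called lower by DESeq2) summed to 10.8 and 7.54 against 20.8, 7.75 and 58.3 CPM, the highest in the 2 wild-type libraries where Sox4 was at 16.6 and 51.6 CPM. Over all its tested genes DESeq2 called 4.53% lower. Erythroid markers summed to at most 0.275 CPM and T and NK cell markers to at most 0.798 CPM. The part of any such cells in the granule transcripts was not tested.

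Of 10 regulators of the granulocyte lineage, 1 had its highest levels in knockout replicate 2 and wild-type replicate 1 as the granule genes did. This was Gfi1, a repressor needed for neutrophil development, at 0.249 and 0.667 CPM in knockout and 0.626, 0.0195 and 0.106 CPM in wild type (17 counts or fewer). In edgeR 9 were tested and 0 passed (4 with a higher and 5 with a lower fitted level, median log2 -0.05). DESeq2 called 1 lower, Cebpa (log2 -2.78, adjusted p = 0.000705), which starts the granulocyte programme and was at 27.5 CPM or less in knockout against 206, 77.1 and 119 CPM in wild type. Over all its tested genes DESeq2 called 4.53% lower. Spi1, which encodes PU.1, was at 351 and 348 CPM in knockout and 213, 269 and 199 CPM in wild type. Runx1 was at 114 and 81.5 against 117, 154 and 94.9 CPM, and Cebpb at 54.2 and 59.9 against 76.4, 70.8 and 191 CPM. Cebpe, the factor that switches on secondary granule genes, was at 0.187 and 1.33 against 0.740, 0.779 and 0.780 CPM. It was lowest in knockout replicate 1, with 3 counts, as most of the granule genes were. In wild type Cebpe was nearly level, while the granule genes were highest in replicate 1. Gfi1, Cebpa and Cebpe are named here after their values were seen.

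Inflammatory and acute-phase genes, the setting in which Lcn2 and Saa3 are induced, had mostly higher fitted levels in knockout, with no call in edgeR and 5 in DESeq2. Of 16 listed, 11 were tested and 0 passed in edgeR. There 6 had an unadjusted p under 0.05, against 13.8% of all tested genes. DESeq2 called Tnf, Nfkbiz, C3, Acod1 and Csf3, all higher, against 3.18% of all its tested genes. Fitted levels were higher for 9 and lower for 2, with a median log2 of 2.63, and 7 of the 11 had both knockout libraries above all wild-type libraries against 17.8% of all tested genes. Nfkbiz, a nuclear IkB protein needed for Lcn2 induction, was at 735 and 633 CPM in knockout and 15.3, 140 and 34.8 CPM in wild type. C3 was at 619 and 495 against 41.5, 201 and 24.4 CPM, and Acod1, which makes itaconate, at 258 and 247 against 1.20, 31.0 and 10.6 CPM. In wild type these 3 genes were highest in replicate 2, as Saa3 was.

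Markers of B cells moved with this group and with Lcn2 and Saa3. Of 6 listed, 4 were tested, and all 4 had both knockout libraries above all wild-type libraries (median log2 5.23). Over all tested genes 17.8% had this order. In edgeR 0 passed and 4 had an unadjusted p under 0.05, against 13.8% of all tested genes. DESeq2 called 5 of the 6 higher, against 3.18% of all its tested genes. Ms4a1, which encodes CD20, was at 3.30 and 0.667 CPM in knockout and 0.0569, 0 and 0.0887 CPM in wild type. The list summed to 24.9 and 12.0 CPM in knockout and 0.911, 2.88 and 16.05 CPM in wild type, where replicate 3 held 15.7 CPM of Ebf1. The part of these cells in the levels of Lcn2, Saa3 and the inflammatory genes was not tested.

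None of 10 other S100 genes listed was highest in knockout replicate 2 and wild-type replicate 1, as S100a8 and S100a9 were. In edgeR 6 were tested and 0 passed, and all 6 had a lower fitted level in knockout (median log2 -0.62). DESeq2 called 1 of them, S100a1, lower (adjusted p = 0.0471), against 4.53% of all its tested genes. S100a6 was at 116 and 165 CPM against 101, 198 and 448 CPM, S100a10 at 119 and 175 against 77.4, 160 and 237 CPM, and S100a1 at 17.0 and 24.6 against 152, 44.6 and 55.6 CPM. S100a6 and S100a10 were at their lowest in wild-type replicate 1, where S100a8 and S100a9 were high.

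Receptors and inhibitors of these proteins were tested as 2 further lists, and 0 passed in edgeR in either. DESeq2 called 2 receptors, Cd69 higher and Emb lower, and 0 inhibitors. Over all its tested genes it called 3.18% higher and 4.53% lower. Of 10 receptors, 5 were fitted higher and 5 lower in knockout. Lrp1 was at 3391 and 2727 CPM against 4740, 5008 and 2093 CPM, Cd36 at 1592 and 1637 against 1662, 1138 and 725 CPM, and Bsg at 129 and 194 against 141, 180 and 309 CPM. Of 8 protease inhibitors 6 were tested, 2 with a higher and 4 with a lower fitted level. Serpinb6a was at 294 and 349 against 571, 454 and 572 CPM, Serpinb6b at 14.8 and 36.7 against 14.5, 11.2 and 4.13 CPM, and Serpina3g at 2.87 and 0.706 against 0.228, 0.136 and 10.6 CPM.

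The other readout of the series, DNA enriched for 5-hydroxymethylcytosine (5hmC, the mark that TET2 makes), had few listed peaks at these genes. Of 9151 listed peaks, 2 lay within 10 kb of any of the 10 genes, and 1 overlapped a gene body. That peak (chr10:79882857-79883154), called in knockout, lies at the end of Prtn3 and 3158 bases before Elane. Its counts were 12 and 3 in knockout and 1 and 8 in wild type, or 26.0 and 7.06 per 100000 peak counts against 2.34 and 3.65. Over 2544 peaks the counts of the knockout pair differed less than independent sampling would give (chi-square of 0.574 for each degree of freedom). The reason was not tested. The pair is taken as 1 sample, so no mean or SD over it is given. The other peak (chr10:79896783-79897162), called in wild type, lies 8567 bases past Elane, with 4 and 3 against 6 and 19 counts, or 8.65 and 7.06 against 14.1 and 8.67 per 100000. For the other 8 genes the nearest listed peak was 35.0 to 106 kb away. Counts this low were not tested, and the list holds called peaks only, so a gene without one need not lack 5hmC.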

How the data were processed

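RNA counts per gene and 5hmC counts per peak are whole numbers as the authors deposited them, unnormalised. Per the submitters' processing notes, STAR, BWA, HTSeq, MACS2, Trim Galore and CASAVA 1.4 were used with GRCm38. The sources used here do not state the role of each, the annotation release or the strand setting. Groups come from the labels. Of 47731 genes, 47224 matched a symbol.

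The 5 RNA libraries were fitted with edgeR 4.0.16 in R 4.3.3 (filterByExpr, TMM, glmQLFit and glmQLFTest, two-sided, Benjamini-Hochberg over 14851 genes, threshold 0.05). The SE is the log2 change divided by the square root of F. Alternatives used DESeq2 1.42.0 and limma-voom 3.58.1. Member genes, lists and rules were chosen with earlier results of these data known. Named genes are the 10 members, the 3 nearest profiles per class (log2 CPM, prior count 2; predicted genes, clones and pseudogenes left out), and the 3 most abundant genes of each related list; others were named after their values were seen. Counts of the 2 knockout 5hmC libraries differed less than independent sampling would give (chi-square of 0.574 for each degree of freedom, 2544 peaks). These 2 libraries were treated as 1 sample. Counts of the wild-type pair differed more than sampling would give (1.20, 8647 peaks). Promoters are RefSeq's (GRCm38.p6), matched by symbol for 10 of 10 genes.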

Additional observations from a re-analysis of the deposited data

How the results depend on the processing

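The count of the 10 genes called was 0 under every setting run. Over all genes the count was 2 with all libraries, 1234 with DESeq2 (509 higher, 725 lower), 1 with limma-voom, 4 at a threshold of 0.1, and 0 with total-count scaling, with the replicate block, and without knockout replicate 1 and wild-type replicate 3 together (added after seeing the data); with 1 replicate left out it was 0 to 0. Of 129 fitted values for single genes under an alternative, 106 kept their direction and 23 reversed, none of the latter in Lcn2 or Saa3. Mpo, Elane and Ngp reversed with total-count scaling (log2 0.20, 0.14 and 0.11), limma-voom (0.23, 1.30 and 0.49) and the pair left out (0.37, 0.26 and 0.26). With the replicate block Ltf, S100a8 and S100a9 reversed (-0.43, -0.32 and -0.98). With 1 replicate left out the log2 range was -9.72 to 2.64 in Mpo, -8.12 to 2.71 in Elane, -7.61 to 2.33 in Prtn3, -11.58 to 3.83 in Ngp, -4.18 to 3.02 in Camp, -10.91 to 4.91 in Ltf, -3.32 to 3.31 in S100a8 and -6.09 to 4.27 in S100a9. These reversals follow from which libraries enter the fit; for the other settings the cause was not tested. The labels do not say whether shared replicate numbers pair the libraries. Deviations from the group mean in same-numbered libraries correlated at 0.001 (replicate 1) and -0.12 (replicate 2) over 14851 genes. With 2 knockout libraries their deviations are exact opposites, so these values cannot show whether libraries were paired. TMM scaling moved no class sum by more than the SD between replicates. That SD is wide (27.1 CPM for the secondary class in wild type), so this check is weak. In wild-type replicate 1 the secondary sum went from 49.5 to 59.2 CPM and the alarmin sum from 74.7 to 89.4 CPM. Listed 5hmC peaks numbered 1 in gene bodies and 7 within 50 kb, against 2 within 10 kb. Counting error is large for the 6 granule genes where counts are few (38 in wild-type replicate 3, the deepest library, and 1 in knockout replicate 1, the shallowest).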

Other observations

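Beyond the 10 genes, 23 others were at least 8-fold higher in knockout replicate 2 than in knockout replicate 1 (on CPM plus 0.1). Those described here were chosen after their values were seen. Fcnb, the lectin ficolin B, was at 0 and 1.02 CPM in knockout and at 1.59, 0.0195 and 0 CPM in wild type. Pglyrp1, a peptidoglycan recognition protein of granules, was at 0 and 1.06 CPM against 0.512, 0.0584 and 0.0355 CPM. Chil1, a chitinase-like protein, was at 0.125 and 5.18 CPM against 1.42, 0.0584 and 0.0887 CPM. Ctsk, the collagenase of osteoclasts, was at 3.99 and 49.9 CPM against 2.73, 38.8 and 24.8 CPM. Ifi202b, an interferon-inducible DNA-binding protein, was at 0 and 106 CPM in knockout and at 17.5, 0 and 32.6 CPM in wild type, so that knockout replicate 1 and wild-type replicate 2 had 0 counts. These genes were picked for the gap between 2 single libraries, which is a description and was not tested.

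Members of the stefin A cluster, cysteine protease inhibitors among the listed neutrophil markers, were seen in knockout replicate 2 alone. Stfa2l1 had 50 counts, BC100530 had 53, Stfa3 17, Stfa2 13 and Stfa1 1, and all 5 genes had 0 counts in the other 4 libraries. Wild-type replicate 1, whose Ngp and S100a9 levels were close to those of knockout replicate 2, thus had 0 counts of each, which allows up to 0.171 CPM, against 1.96 CPM of Stfa2l1 and 2.08 CPM of BC100530 in knockout replicate 2. The stefin genes are near-identical copies, and how reads were divided among them is uncertain. Ly6c2, a monocyte surface marker, was also highest in knockout replicate 2 and wild-type replicate 1 (2.35 and 2.16 CPM, against 0.872, 0.214 and 0.0355 CPM in knockout replicate 1 and wild-type replicates 2 and 3). Kit, a progenitor receptor, was not: it was highest in knockout replicate 1, at 4.42 CPM, and at 0.355 to 1.76 CPM in the other 4 libraries.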
